A study of Arabidopsis thaliana with 36 samples.

Results

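The genes raised by ACC at both times are the 161 genes, of 33602 in the table, whose mRNA was higher in Arabidopsis thaliana seedlings after 2 h and after 4 h of ACC than in mock-treated seedlings of the same time. ACC is the compound that plants turn into ethylene. A gene was kept when its mean was at least 5 RPM (reads per 1e+06 reads of a library) in an ACC group and the mean of log2(RPM + 1) over 3 ACC libraries exceeded that over 3 mock libraries by at least 0.8 at both times. Of the 15672 genes that met the RPM minimum, 235 passed at 2 h, 231 at 4 h and 161, or 1.03%, at both. The members were thus selected on their ACC values, which are given below as a description with no test. The glucose experiments share no library with the ACC experiment, and the tests were made there.

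All libraries were mRNA-seq of whole seedlings 4 days old, in 12 groups of 3 biological replicates. Seedlings of the ethylene experiment were wild-type Col-0 in liquid half-strength Murashige and Skoog medium with 0.5% glucose. Their treatment was 10 µM ACC or mock, lasting 2 h or 4 h. In both glucose experiments the seedlings had been kept without glucose and then received 15 mM glucose for 2 h or none (written +Glc and −Glc). The first compared wild-type Col-0 with tor, labelled XVE-TOR RNAi, an inducible knock-down line of the growth-promoting kinase TOR. The labels do not say which groups received the inducer or how many lines were used. The second compared wild-type Ler with gin2, a mutant of the hexokinase and glucose sensor HXK1. Each mutant thus has its own wild type.

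Ethylene binds receptors in the endoplasmic reticulum, among them ETR1, ERS1, ETR2, ERS2 and EIN4. Without ethylene the receptors keep the kinase CTR1 active, and CTR1 holds back EIN2. With ethylene EIN2 signals to the transcription factors EIN3 and EIL1, which the F-box proteins EBF1 and EBF2 otherwise mark for destruction. Several of these components are themselves known transcriptional targets of the pathway, so that an ethylene signal raises its own receptors and brakes. Glucose feeds growth through TOR and is also sensed by HXK1, and seedlings without sugar switch on starvation genes.

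The 250 bases before the annotated start of 4 members are shown because these members carry the results: a receptor, a brake on EIN3, a transcription factor with one of the largest ACC differences, and a gene whose glucose response differed between genotypes. They were read from RefSeq assembly TAIR10.1 by gene code, 5′ to 3′ on the gene's strand. The build the authors used is not given in the sources used here. Capitals mark ATGTA, the core of the EIN3 binding motif, and its longer form ATGNANCT, on either strand.
ETR2, chr3:8254309-8254558, plus strand: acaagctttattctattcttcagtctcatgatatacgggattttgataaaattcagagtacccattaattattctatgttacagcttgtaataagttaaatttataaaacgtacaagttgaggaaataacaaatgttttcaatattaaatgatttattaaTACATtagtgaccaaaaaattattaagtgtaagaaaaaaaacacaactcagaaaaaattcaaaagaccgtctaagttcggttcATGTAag
EBF2, chr5:8797350-8797599, minus strand: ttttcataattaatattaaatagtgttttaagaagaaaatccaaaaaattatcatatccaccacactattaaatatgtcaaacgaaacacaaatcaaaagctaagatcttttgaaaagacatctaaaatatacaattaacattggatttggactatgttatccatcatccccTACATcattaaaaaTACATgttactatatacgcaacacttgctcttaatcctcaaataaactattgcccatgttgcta
HEC2, chr3:18658378-18658627, minus strand: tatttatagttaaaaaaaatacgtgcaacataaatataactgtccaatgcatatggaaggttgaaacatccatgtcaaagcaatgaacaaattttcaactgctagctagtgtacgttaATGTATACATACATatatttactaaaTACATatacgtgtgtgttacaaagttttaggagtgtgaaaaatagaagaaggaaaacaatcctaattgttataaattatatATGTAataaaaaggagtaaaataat
AT3G20395, chr3:7113900-7114149, minus strand: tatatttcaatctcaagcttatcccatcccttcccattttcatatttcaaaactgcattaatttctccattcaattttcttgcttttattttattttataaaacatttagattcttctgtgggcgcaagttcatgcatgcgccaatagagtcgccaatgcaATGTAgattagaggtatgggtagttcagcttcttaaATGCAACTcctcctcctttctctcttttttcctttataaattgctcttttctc
In the windows of the 159 members that could be read, ATGNANCT occurred in 19.5%, against 12.1% of genes that met the RPM minimum and 12.4% of all 26712 gene windows. ATGTA occurred in 54.7% of the members' windows, against 52.0% of genes that met the minimum. The GCC box GCCGCC, the site of many ethylene response factors, occurred in 1.89% and 1.94%, and the G box CACGTG in 8.81% and 7.21%. In windows of 1000 bases the GCC box occurred in 7 members (4.40%), against 8.82% of genes that met the minimum, and ATGNANCT in 56.6% against 48.3%. The forms ATGTA and ATGNANCT can share letters. A match describes the sequence and shows no binding.

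The median difference between ACC and mock was 1.25 at 2 h (range 0.80 to 3.10) and 1.18 at 4 h (0.80 to 3.80), on the log2(RPM + 1) scale. Both differences exceeded 1 in 103 members and 2 in 12. In whole seedlings, a higher level in the same cells and a larger share of expressing cells cannot be told apart. The 3 ACC libraries lay above the 3 mock libraries at both times in 159 members, and AT1G65690 and BARS1 (AT4G15370) were the exceptions. The rule used these same libraries and so favours such a separation. The count is a description and no evidence of reproducibility, and the share over all genes was not computed. The mean of the members over mock libraries, a value the rule used, had a median of 9.39 RPM, against 25.1 RPM for all genes that met the minimum. The 51 members below 5 RPM in the mock met the minimum through the ACC libraries. At low levels the added 1 RPM makes these differences smaller than true ratios.

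**Figure D1:**
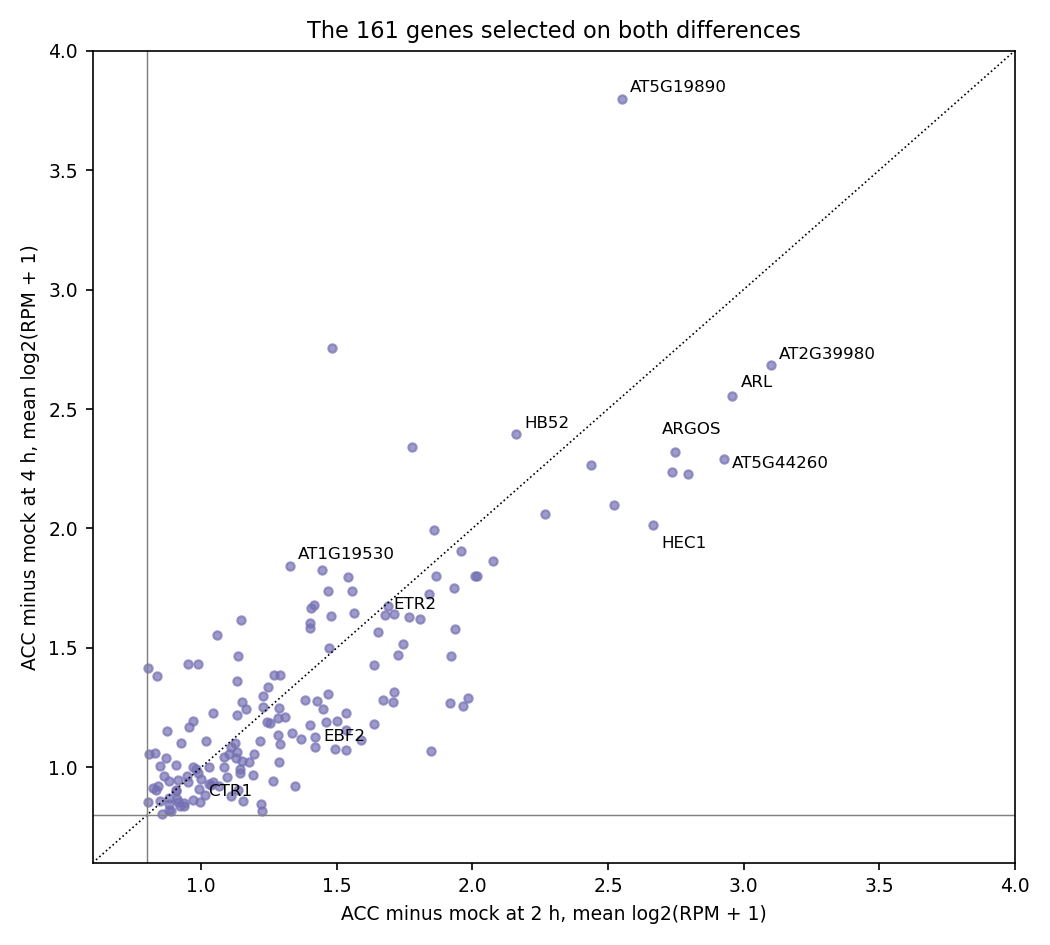
Each point is 1 of the 161 members, with its ACC minus mock difference at 2 h (x axis) and at 4 h (y axis) in mean log2(RPM + 1); grey lines mark the threshold of 0.8 and the dotted line equal values. Most members lie near the dotted line, and AT5G19890 stands apart at 2.55 and 3.80.

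The 2 differences were similar in size for most members, as their scatter shows. The rule required at least 0.8 at both times and left out genes that passed at 1 time alone. The similarity is therefore partly set by the selection and does not describe the ACC response of other genes. The difference at 4 h was smaller than that at 2 h in 105 members and larger in 56. Only the peroxidase genes AT5G19890 and AT1G49570 grew by more than 1 between the times, AT1G49570 from 1.48 to 2.76. Just inside the threshold were AT2G38430 with a smaller difference of 0.8022, ANAC059 (AT3G29035) with 0.8027 and AT1G51830 with 0.8041. Just outside were AT5G51670 with 0.7992, STR18 with 0.7968 and AT1G75490 with 0.7960. Of the 74 genes that passed at 2 h alone, the median difference at 4 h was 0.62, and of the 70 that passed at 4 h alone, the median at 2 h was 0.51. The border of the set thus cuts through a continuous range.

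Part of the ethylene perception machinery was in the set. Of 8 genes of perception listed, ERS1, ETR2, ERS2 and RTE1, whose product stabilises the receptor ETR1, were members. The other 4, ETR1, EIN4, RTH and RAN1, had differences between −0.05 and 0.27 at either time. ETR2 (AT3G23150) stood at 25.4, 23.4 and 24.2 RPM in the mock and 82.6, 76.0 and 81.3 RPM in the ACC libraries at 2 h. At 4 h it stood at 31.3, 24.0 and 22.8 RPM and 87.6, 80.4 and 79.4 RPM. At either time every ACC library lay far above every mock library. ERS2 (AT1G04310) went from 11.7 ± 0.625 to 47.4 ± 0.846 RPM (mean ± SD, n = 3) at 2 h, a difference of 1.94. ERS1 (AT2G40940), already at 136 ± 1.26 RPM in the mock, had a difference of 0.99; its locus overlaps another annotated gene, AT2G40935.

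Downstream of the receptors, CTR1 and EBF2 were the members among 8 relay genes, and EIN2, EIN3, EIL1, EBF1, ETP1 and ETP2 had differences between −0.06 and 0.68. EBF2 (AT5G25350) was at 110.2, 157 and 105 RPM in the mock and 323, 328 and 331 RPM in the ACC libraries at 2 h, and at 160.4, 146 and 135 RPM and 338, 299 and 302 RPM at 4 h. The groups were well apart at both times, by 1.42 and 1.08. EBF2 overlaps 2 other annotated genes and lies beside AT5G25360, also a member, and the strand setting of the counting is not given, so their reads may not be fully separate. CTR1 (AT5G03730) differed by 1.00 and 0.85 from a mock level of 109 ± 9.45 RPM at 2 h.

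Ethylene synthesis was represented by ACC oxidases, the enzymes that turn ACC into ethylene, and by none of the ACC synthases that make ACC. Of 14 listed genes, 8 met the RPM minimum and ACO1, ACO4 and ACO5 were members. Among the synthases only ACS6 and ACS7 met the minimum, with differences between −0.15 and 0.12 at either time. The other synthases listed were below the minimum and so could not be members. ACO4 (AT1G05010) was the most abundant, at 408, 324 and 396 RPM in the mock and 794, 805 and 783 RPM in the ACC libraries at 2 h.

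Among transcription factors, the list of ERF, EDF and HB52 genes gave 5 members of the 16 that met the RPM minimum: ERF2, ERF11, ORA59, EDF3 and HB52. The others of the 16 had differences between −0.20 and 1.10 at 2 h and between −0.95 and 0.53 at 4 h. ERF1 differed by 1.59 and 1.34 but missed the minimum, with means of 2.41 and 2.38 RPM in the ACC groups. ERF11 (AT1G28370), a repressor of the ERF family, went from a mean of 0.859 to 6.27 RPM at 2 h, and EDF3 (AT3G25730), a known EIN3 target, from 6.95 to 30.8 RPM. By product name 19 members were classed as transcription factors, the largest named class. The class follows the wording of product names and misses some factors, EDF3 among them. The basic helix-loop-helix gene HEC2 (AT3G50330) was at 1.05, 1.61 and 0.858 RPM in the mock and 15.5, 13.9 and 12.5 RPM in the ACC libraries at 2 h, with a wider spread at 4 h, where ACC libraries held 7.87, 12.6 and 18.9 RPM. Its close relative HEC1 (AT5G67060) had differences of 2.67 and 2.01. Both HEC genes are known for roles in the gynoecium and in light responses. PIF3 (AT1G09530), a phytochrome-interacting factor of seedling growth, differed by 1.64 and 1.43. ANAC092 (AT5G39610, NAC6 in RefSeq), a promoter of leaf senescence also called ORE1, differed by 2.52 and 2.1.

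**Figure D2:**
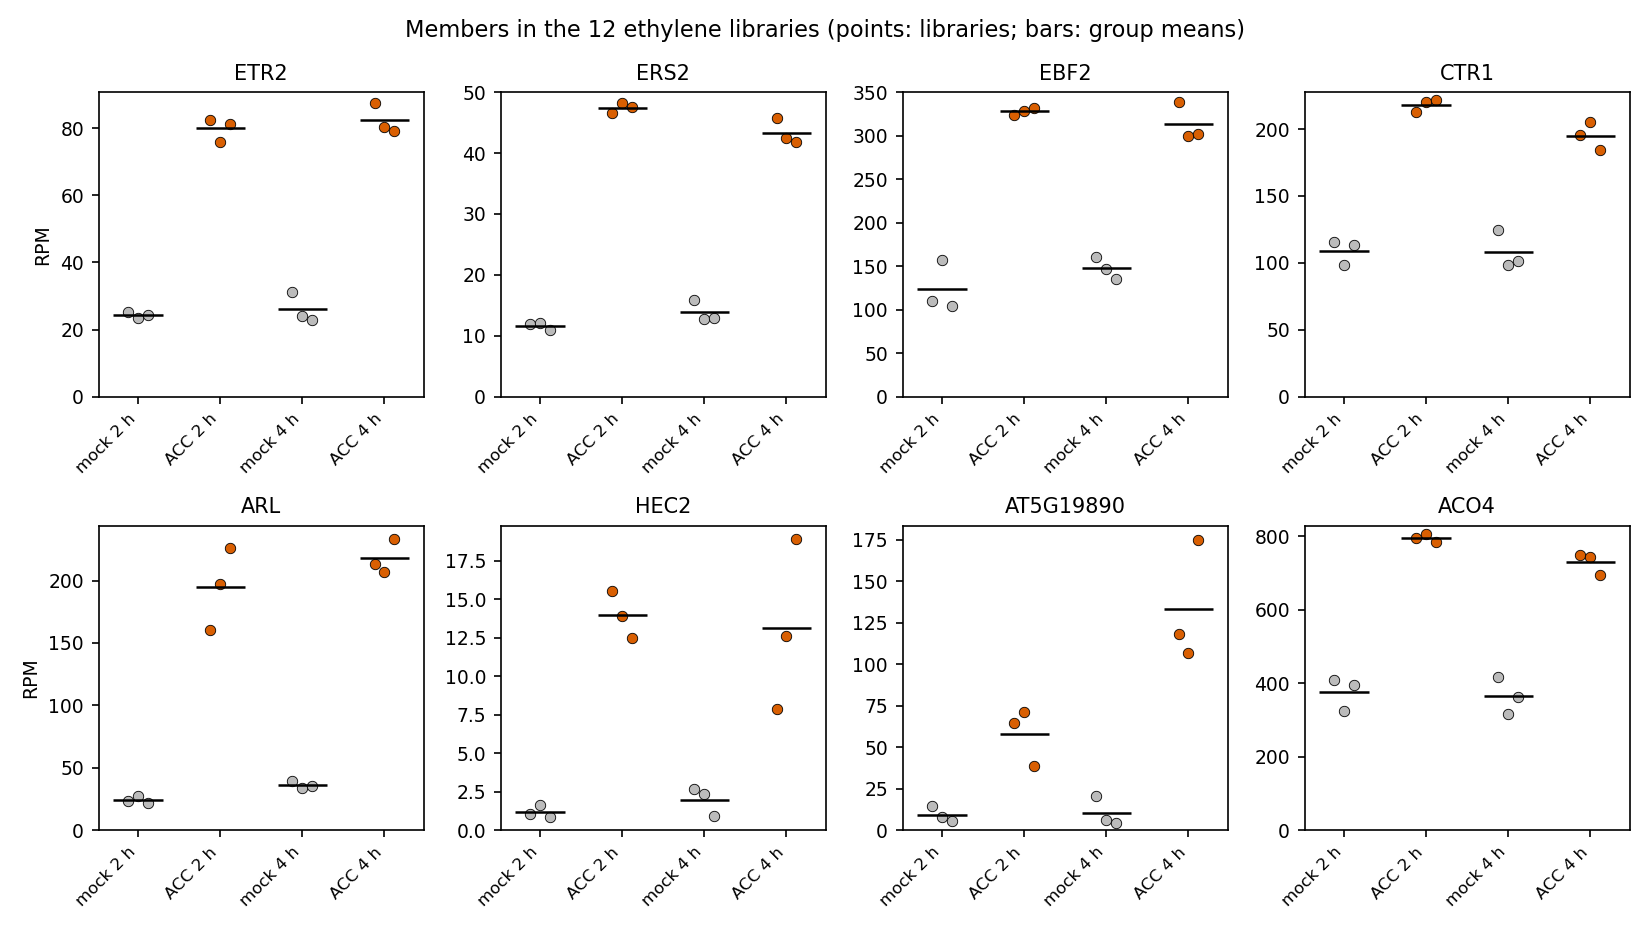
RPM of 8 members (y axes, linear, from 0) in the 12 ethylene libraries; points are libraries, bars group means, grey mock and orange ACC. In each panel the ACC libraries lie above the mock libraries of the same time; AT5G19890 is higher at 4 h (mean 133 RPM) than at 2 h (mean 58.0 RPM).

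Growth genes were among those with the largest differences. ARGOS, ARL and HLS1 were the 3 of 4 listed genes of organ growth and the apical hook that met the minimum, and all 3 were members. ARL (AT2G44080), which promotes cell expansion, was at 23.0, 27.5 and 21.7 RPM in the mock and 161, 197 and 226 RPM in the ACC libraries at 2 h, and at 39.7, 33.9 and 35.1 RPM and 213, 207 and 234 RPM at 4 h. ARGOS (AT3G59900), whose product is known to lower ethylene sensitivity, differed by 2.75 and 2.32, and HLS1 (AT4G37580), needed for the apical hook, by 1.43 and 1.28. The largest difference at 2 h belonged to the acyltransferase gene AT2G39980, from 28.1 ± 1.65 to 252 ± 52.0 RPM; it overlaps AT2G39975. The peroxidase gene AT5G19890 had the largest at 4 h, with 20.5, 6.0 and 4.55 RPM in the mock and 118, 107 and 175 RPM in the ACC libraries.

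Other lists held 0 to 2 members each, to be read beside the 1.03% of all genes that passed the rule. The auxin synthesis gene YUC3 was 1 of 14 genes of auxin synthesis and transport that met the minimum, IAA29 1 of 8 auxin response genes and WRKY40 1 of 9 defence and touch genes. Of 10 root hair genes and 5 type-A response regulators, which answer cytokinin, 0 were members, and at 1.03% lists of this size hold too few genes to read anything from that. SEN1 and SEN5 were 2 of 18 genes of darkness and sugar starvation. The panel plot of RPM in the ethylene libraries shows the range of shapes, from steady plateaus such as ERS2 to the later gain of AT5G19890.

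Before the glucose results, some properties of the libraries bear on them. Reads on listed genes numbered 16.4 to 21.5 M (1e+06) in the ethylene, 13.3 to 21.9 M in the first and 5.64 to 13.6 M in the second glucose experiment. TOR RNA was 223 ± 0.597 RPM in libraries labelled tor and 115 ± 5.17 RPM in Col-0 without glucose, higher rather than lower, so the RNA does not show a knock-down; tor is used below as the label of these libraries. Without glucose HXK1 RNA stood at 34.0 ± 10.6 RPM in Ler, against 14.4 ± 0.924 RPM in the gin2 libraries. In Ler 26.9% to 54.3% of the RPM total lay outside the genes used, against 13.2% to 18.3% in gin2. The genes used in this experiment, called listed genes here, are those listed for both Ler and gin2. The 1033 genes listed for gin2 only and 17 codes with a Ler suffix count as outside. Ler replicate 3 without glucose and with glucose deviated together (correlation of residuals over genes 0.637). Shoot and root markers were detected in every group. The summed level of 3 seed markers was 14.6 to 334 RPM in Ler and at most 18.3 RPM in gin2, and 2.66 to 108 RPM in tor and at most 17.2 RPM in Col-0; their part in the results was not tested.

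In Col-0, glucose lowered many more of these genes than it raised. Of 155 members tested, 71 (45.8%) fell and 28 (18.1%) rose, whereas 20.6% of all 19336 genes tested fell and 35.7% rose. The median log2 change was −0.36 in the members and 0.14 over all genes. Called falls of at least 1 numbered 49 and called rises of at least 1 numbered 9, against 5.82% and 11.1% of all genes. A change was called when limma's Benjamini-Hochberg adjusted p, two-sided over all genes of the experiment, was below 0.05. Median-of-ratios scaling in place of RPM moved the median of all genes from 0.14 to −0.02, with 28.9% of genes called up and 30.4% down, and under it 88 members fell and 25 rose.

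The falls of largest size were in starvation genes. SEN5 (AT3G15450), a gene induced by darkness and sugar starvation, stood at 793, 1318 and 1197 RPM without and 2.35, 1.59 and 2.60 RPM with glucose, a fall of 8.42 ± 0.18 (adjusted p = 1.03e-11). SEN1 (AT4G35770), another dark-inducible gene, stood at 998, 1002 and 1236 RPM without and 20.2, 24.5 and 29.9 RPM with glucose and fell by 5.39 ± 0.30 (adjusted p = 1.68e-08). No library of one group came near the other in either gene. All 19 tested genes of the starvation list fell in each of the 4 genotypes, so the members SEN1 and SEN5 share this with the list. SEN5 overlaps AT3G15460. AT1G19530 fell by 5.31 ± 0.24 (adjusted p = 2.76e-09), AT2G15960, annotated as stress-induced, by 4.80 ± 0.15 (adjusted p = 2.41e-10), and the carrier gene UMAMIT33 (AT4G28040, overlapping AT4G28050) by 4.00 ± 0.20 (adjusted p = 6.82e-09).

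Of the 6 perception and relay members, 5 also fell with glucose in Col-0. EBF2 was at 244, 331 and 263 RPM without and 116, 105 and 133 RPM with glucose, and fell by 1.23 ± 0.13 (adjusted p = 3.71e-06). ERS2 fell by 0.97 ± 0.15 (adjusted p = 0.000139), ERS1 by 0.61 ± 0.15 (adjusted p = 0.00306), RTE1 by 1.05 ± 0.11 (adjusted p = 2.74e-06) and CTR1 by 1.03 ± 0.09 (adjusted p = 1.26e-06). ETR2 changed by −0.28 ± 0.14 (adjusted p = 0.103) and did not pass, though with median-of-ratios scaling its value was −0.47 (adjusted p = 0.00373), and it also passed with edgeR (adjusted p = 0.00306), with DESeq2 (adjusted p = 0.000963) and in a fit to the Col-0 glucose libraries alone (adjusted p = 0.0466). These falls were not limited to members: 6 of 8 perception genes and 7 of 8 relay genes fell. ACO4 fell by 1.29 ± 0.18 (adjusted p = 5.19e-05), while ACO1 rose by 1.00 ± 0.25 (adjusted p = 0.00374) and EDF3 by 0.53 ± 0.15 (adjusted p = 0.00825). The genes of ethylene synthesis and response thus split in direction.

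Regulators were among the members that fell in Col-0. The class counts below are to be read beside falls in 45.8% of all members tested and 20.6% of all genes. No class was tested against the other members. All 5 members named for the ubiquitin pathway fell in Col-0 (median −2.24), led by the RING-type gene AT3G20395 at 31.9, 28.3 and 41.9 RPM without and 1.55, 0.842 and 1.05 RPM with glucose (a fall of 4.02 ± 0.17 (adjusted p = 1.91e-09)). Of the 19 members classed as transcription factors by product name, 11 fell and 2 rose. That class misses some factors, such as EDF3, which rose. Of 8 AP2/ERF members tested, a family grouped after its values were seen, 5 fell and 3 rose. All 4 NAC factors fell, ANAC055 (AT3G15500) by 2.63 ± 0.18 (adjusted p = 8.36e-08), ANAC092 by 2.1 ± 0.22 (adjusted p = 3.06e-06) and ANAC059 by 1.38 ± 0.21 (adjusted p = 9.75e-05); this family was grouped after its values were seen. UPB1 (AT2G47270), a repressor of peroxidase genes in the root, fell by 2.61 ± 0.19 (adjusted p = 1.71e-07). Of 8 glycosyl transferases and hydrolases 6 fell. Of 3 peroxidase genes, AT5G19890 and AT1G49570 fell, AT5G19890 by 1.46 ± 0.24 (adjusted p = 0.000195), and AT3G49960 rose by 1.70 ± 0.42 (adjusted p = 0.00362).

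The rises were led by a sugar transporter. GPT2 (AT1G61800), which carries glucose 6-phosphate into plastids and is known to be sugar-induced, was at 3.93, 1.06 and 0.793 RPM without and 134, 103 and 80.3 RPM with glucose, a rise of 5.31 ± 0.41 (adjusted p = 2.64e-07). AT1G50110, annotated as a PLP-dependent aminotransferase-like gene, was at 3.27, 3.51 and 3.07 RPM and 19.5, 20.2 and 18.6 RPM. Its rise of 2.26 ± 0.12 (adjusted p = 1.19e-08) recurred in the other genotypes. AT4G35160, an O-methyltransferase family gene, rose by 2.07 ± 0.20 (adjusted p = 2e-06).

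**Figure D3:**
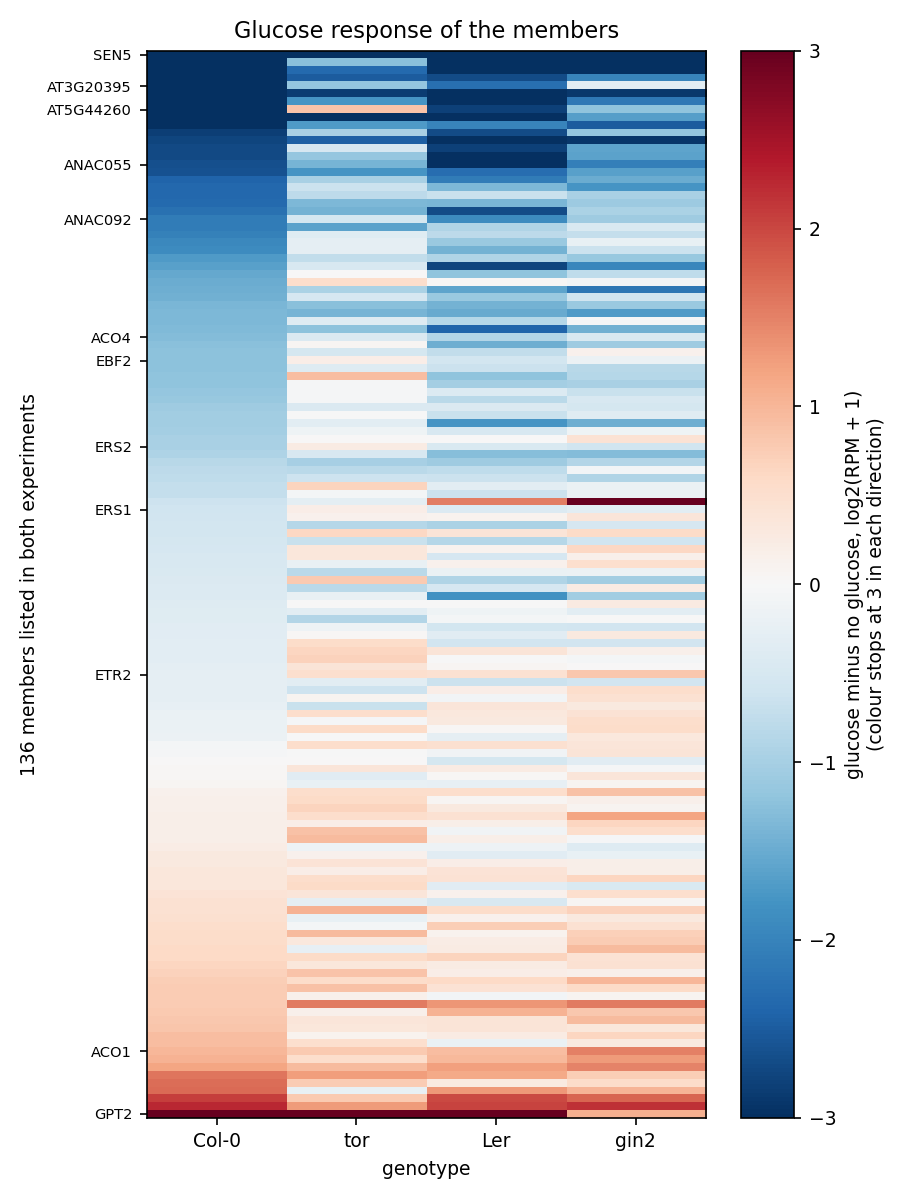
Glucose minus no glucose in log2(RPM + 1) (colour, blue lower and red higher) in the 4 genotypes (columns) for the 136 members listed in both glucose experiments (rows, in order of the Col-0 value). The blue upper rows are paler in the tor column, SEN5 at the top fell in all 4, and GPT2 at the bottom rose in all 4, with the palest red in gin2.

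In libraries labelled tor, 39 of 155 members (25.2%) fell and 38 (24.5%) rose, against 14.8% and 19.9% of all genes, and the median change was −0.03, against 0.05 for all genes. With median-of-ratios scaling 47 members fell and 36 rose, against 19.2% and 17.7% of all genes. Called changes of at least 1 were 20 falls and 6 rises, against 3.51% and 2.3% of all genes. SEN5 fell by 5.50 ± 0.18 (adjusted p = 2.4e-09), from 1602, 1583 and 1415 RPM to 33.9, 38.1 and 27.5 RPM. The level with glucose was above 27 RPM in every tor library and below 3 RPM in every Col-0 library. AT2G17880, a DnaJ-domain gene, fell by 2.98 ± 0.17 (adjusted p = 1.46e-07) and OXS3 (AT5G56550), a gene of oxidative stress tolerance, by 2.44 ± 0.16 (adjusted p = 3.25e-07). GPT2 rose by 6.65 ± 0.41 (adjusted p = 2.23e-07), AT1G50110 by 1.27 ± 0.12 (adjusted p = 7.1e-06) and ETR2 by 0.51 ± 0.14 (adjusted p = 0.0118). The ETR2 call was lost without tor −Glc replicate 3 (adjusted p = 0.0551).

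The difference between the glucose effects, tor minus Col-0, was tested as an interaction. It was positive and called in 54 of 155 members (34.8%) and negative and called in 5 (3.23%), against 6.21% and 11.2% of all genes. With median-of-ratios scaling 10.6% and 10.2% of all genes were called, and 63 and 6 members. The median was 0.36 in the members and −0.10 over all genes. The interaction uses the same libraries as both glucose effects, so these values stand side by side and are no separate evidence. Summed shoot markers (3 of 3 detected) lay at 30640 to 39800 RPM in Col-0 without and 25020 to 27930 RPM with glucose, and at 13680 to 16580 and 9806 to 19510 RPM in tor; their part in the difference was not tested. In 8 members (5.16%) glucose lowered the level in Col-0 and raised it in tor, against 0.176% of all genes: ARGOS, AT5G44260, AT3G60520, AT5G55620, OZF2, ERF2, ABI1 and AT5G17780, a list chosen after its values were seen. Both calls held under every setting run in AT3G60520, OZF2 and ABI1. The tor rise of ERF2 was lost with edgeR (adjusted p = 0.0681), DESeq2 (adjusted p = 0.0819), median-of-ratios scaling (adjusted p = 0.0741), a fit to the tor libraries alone (adjusted p = 0.0635) and without any tor library but +Glc replicate 3. The Col-0 fall of AT5G17780 was lost without any 1 Col-0 library and with a replicate block (adjusted p = 0.0597), and that of AT5G55620 without Col-0 −Glc replicate 1 or 3 or +Glc replicate 2 or 3.

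AT5G44260, a CCCH zinc finger gene, had the largest interaction. In Col-0 it was at 19.4, 40.2 and 28.7 RPM without and 1.80, 0.795 and 1.05 RPM with glucose, and in tor at 131, 144 and 98.5 RPM and 202, 230.2 and 234 RPM. It fell by 3.75 ± 0.23 (adjusted p = 3.9e-08) in Col-0, and the interaction was 4.59 ± 0.32 (adjusted p = 1.5e-05). The tor libraries were higher than the Col-0 libraries under both conditions. Its rise of 0.85 ± 0.23 (adjusted p = 0.0118) in tor was lost without tor −Glc replicate 3 (adjusted p = 0.0532) and with DESeq2 (adjusted p = 0.0687). SEN1 was at 630.1, 881 and 549 RPM without and 469, 161 and 301 RPM with glucose in tor, a fall of 1.25 ± 0.30 (adjusted p = 0.00611) with an interaction of 4.15 ± 0.42 (adjusted p = 0.000126). The interaction was 2.98 ± 0.34 (adjusted p = 0.000195) for AT1G19530, 2.92 ± 0.26 (adjusted p = 3.5e-05) for SEN5 and 2.85 ± 0.24 (adjusted p = 3.16e-05) for AT3G20395.

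The 6 perception and relay members all had a called positive difference between tor and Col-0. A positive call was made in 34.8% of members tested and 6.21% of all genes. EBF2 in tor was at 388, 368 and 307 RPM without and 381, 433 and 399.8 RPM with glucose, where Col-0 had fallen, and its interaction was 1.43 ± 0.18 (adjusted p = 0.000441). ERS2 was at 25.6, 29.4 and 32.9 RPM without and 14.5, 13.5 and 15.3 RPM with glucose in Col-0, and at 83.1, 83.0 and 60.2 RPM and 107, 72.9 and 88.4 RPM in tor. The levels in tor were above all those in Col-0, and the interaction was 1.21 ± 0.22 (adjusted p = 0.00296). It was 1.04 ± 0.15 (adjusted p = 0.000885) for RTE1, 0.89 ± 0.13 (adjusted p = 0.00115) for CTR1 and 0.79 ± 0.20 (adjusted p = 0.0155) for ETR2. For ERS1 it was 0.81 ± 0.21 (adjusted p = 0.0175), lost without Col-0 +Glc replicate 2 (adjusted p = 0.0522). Of the members in the lists of ethylene synthesis, of ERF, EDF and HB52 factors and of organ growth, ACO4 (0.86 ± 0.26 (adjusted p = 0.0365)), ERF2 (1.16 ± 0.21 (adjusted p = 0.00333)) and ARGOS passed. The ACO4 call was lost with a replicate block (adjusted p = 0.0568) and without Col-0 −Glc replicate 2 or 3, any Col-0 +Glc library, or tor −Glc replicate 1 or 3. ACO1, ACO5, EDF3, ERF11, HB52, ARL and HLS1 did not, with values between −0.58 (EDF3) and 0.82 (ARL), and ORA59 was not tested. Of the lists, 5 of 8 perception genes and 4 of 8 relay genes had a positive call, and none a negative one.

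**Figure D4:**
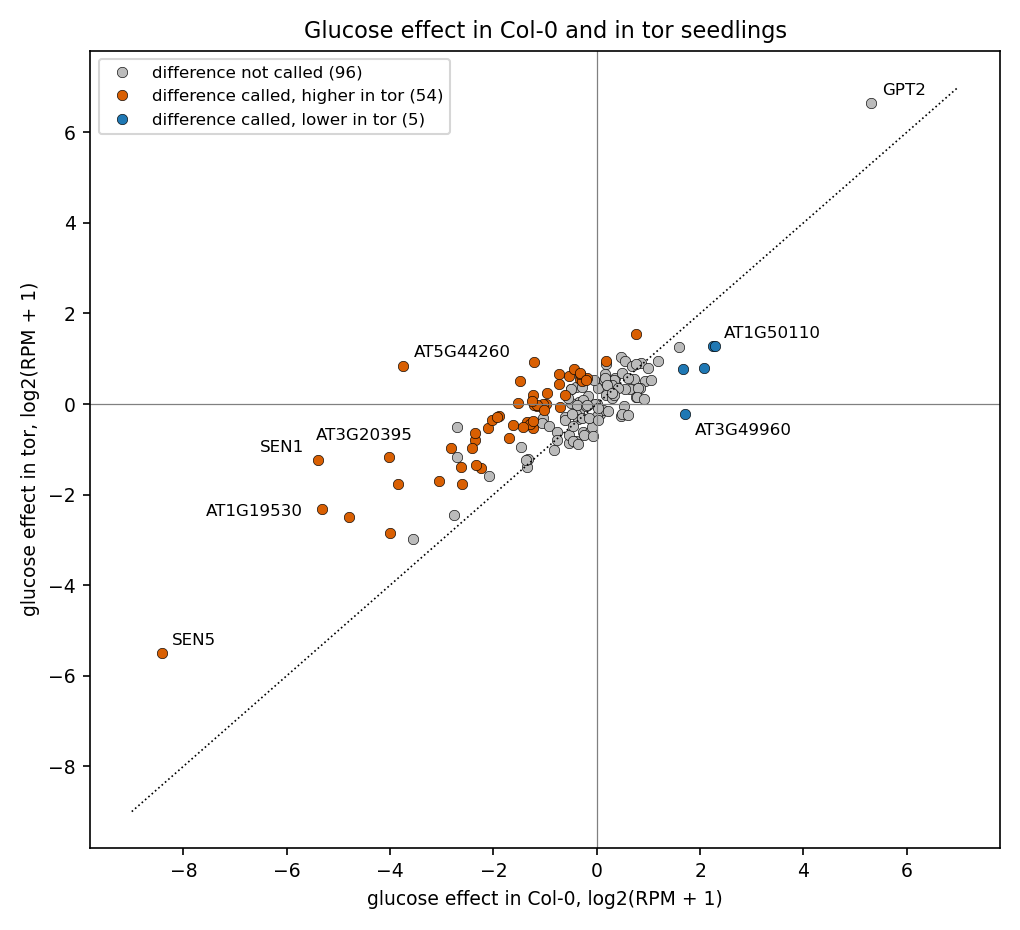
Glucose effect in Col-0 (x axis) against that in tor (y axis), in log2(RPM + 1), for the 155 members tested; the dotted line marks equal effects, orange members have a called difference above 0 and blue below 0. The 54 orange points lie above the line, mostly at falls in Col-0, and the 5 blue points lie below it at rises in Col-0.

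Other members with a called positive interaction included ANAC092 (1.58 ± 0.30 (adjusted p = 0.00442)), AT2G39400, an alpha/beta-hydrolase gene (1.86 ± 0.32 (adjusted p = 0.00244)), and AT2G39980 (2.00 ± 0.29 (adjusted p = 0.000866)). WRKY40 (AT1G80840), a defence regulator, rose in tor by 0.78 ± 0.20 (adjusted p = 0.00764) and had an interaction of 1.22 ± 0.28 (adjusted p = 0.00993). ARGOS fell by 0.54 ± 0.18 (adjusted p = 0.0205) in Col-0 and rose by 0.63 ± 0.18 (adjusted p = 0.0163) in tor, with an interaction of 1.17 ± 0.25 (adjusted p = 0.0083). The single-genotype calls of ARGOS were fragile: leaving out Col-0 −Glc or +Glc replicate 2 or 3 ended the first, and tor −Glc replicate 3 or tor +Glc replicate 2 the other, while its interaction call stayed under every setting run. Negative interactions were those of AT1G50110 (−0.99 ± 0.17 (adjusted p = 0.00242)) and AT4G35160 (−1.28 ± 0.29 (adjusted p = 0.00945)), whose rises were smaller in tor, and those of AT5G26220, AT5G46710 and AT3G49960. The last did not pass with edgeR (adjusted p = 0.0625) or DESeq2 (adjusted p = 0.0604), with a pseudocount of 0.25 RPM (adjusted p = 0.0758) or without Col-0 −Glc replicate 2 or 3, any Col-0 +Glc library, tor −Glc replicate 3, or tor +Glc replicate 2 or 3. The count of negative calls was 3 without Col-0 −Glc replicate 3, Col-0 +Glc replicate 1 or 2, or tor −Glc or +Glc replicate 3, and 10 without tor +Glc replicate 1. The share of all genes moved with it, to between 6.8% and 8.63% without 1 of the former and to 18.8% without the latter. AT5G26220 lost its call without Col-0 −Glc replicate 3, Col-0 +Glc replicate 1 or 2, or tor −Glc or +Glc replicate 3.

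In the second glucose experiment the wild type Ler again showed more falls than rises. Of 137 members tested, 52 (38.0%) fell and 14 (10.2%) rose, against 11.3% and 17.4% of all 17352 genes, and the median change was −0.33, against 0.10 for all genes. SEN5 fell by 6.38 ± 0.27 (adjusted p = 2.92e-16), SEN1 by 5.11 ± 0.26 (adjusted p = 1.29e-14) and OXS3 by 3.70 ± 0.29 (adjusted p = 8.21e-11). Ler shared 50 of its 52 falls with the 68 of Col-0 among 136 members tested in both, which is 96.2% of the former and 73.5% of the latter. Over all 17113 genes tested in both, the 1740 shared falls were 89.6% of those in Ler and 47.6% of those in Col-0. These are separate libraries and separate wild types. With both Ler libraries numbered 3 left out, 59 members fell and 18 rose, and without Ler +Glc replicate 3 alone 24 rose. Over all genes 3049 fell and 3949 rose in the former fit, and 4342 rose in the latter.

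In gin2, 42 members (30.7%) fell and 23 (16.8%) rose, against 8.73% and 18.7% of all genes. The median change was −0.07, against 0.13 for all genes. Without gin2 −Glc replicate 1, 14 members rose, and the rises over all genes went from 3252 to 2374. SEN1 fell by 5.29 ± 0.26 (adjusted p = 1.05e-14) and AT1G19530 by 4.75 ± 0.27 (adjusted p = 3.22e-13). ACO1 rose by 1.50 ± 0.28 (adjusted p = 0.000161), and ETR2 by 0.81 ± 0.23 (adjusted p = 0.00991), a call lost without gin2 −Glc replicate 3 (adjusted p = 0.0534). Median-of-ratios scaling called 25.3% of all genes up and 25.4% down in Ler, and 22.7% and 23.7% in gin2; under it 65 members fell and 19 rose in Ler, and 55 fell and 29 rose in gin2.

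The difference in glucose effect between gin2 and Ler passed in few genes. It was positive in 6 of 137 members (4.38%) and negative in 1 (0.730%), against 0.236% and 0.0576% of all genes. With median-of-ratios scaling 13 and 1 members passed, against 1.48% and 0.461% of all genes, and edgeR gave 14 and DESeq2 17 positive members. Over all 17352 genes edgeR gave 296 and DESeq2 380 positive calls, against 41 in the RPM fit. In the RPM fit the negative one was GPT2, at 55.9, 73.0 and 52.2 RPM in Ler and 6.56, 3.84 and 4.60 RPM in gin2 with glucose, and at 1.90, 2.04 and 1.50 RPM and 2.77, 1.12 and 1.85 RPM without. Its interaction was −3.38 ± 0.34 (adjusted p = 1.44e-06). SEN5 kept 151, 189.6 and 183 RPM with glucose in gin2 and 14.5, 20.5 and 29.5 RPM in Ler, and its interaction was 2.82 ± 0.38 (adjusted p = 0.000304). Both calls held under every setting run.

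The other positive interactions were less stable. LBD41 (AT3G02550), a gene known to respond to low oxygen, was at 11.4, 7.12 and 7.14 RPM without and 23.6, 32.5 and 23.2 RPM with glucose in Ler, and at 19.4, 9.25 and 7.39 RPM and 124, 119 and 147 RPM in gin2. It rose in both, by 1.53 ± 0.27 (adjusted p = 5.9e-05) in Ler and 3.43 ± 0.27 (adjusted p = 1.38e-10) in gin2, and the interaction was 1.90 ± 0.38 (adjusted p = 0.014). AT3G20395 was at 61.2, 65.5 and 73.6 RPM without and 51.0, 50.5 and 58.8 RPM with glucose in gin2, against 49.2, 26.4 and 17.9 RPM and 3.89, 8.49 and 4.15 RPM in Ler. Its change of −0.32 ± 0.28 (adjusted p = 0.442) in gin2 did not pass, though it did with DESeq2 (adjusted p = 0.039) and in a fit to the gin2 libraries alone (adjusted p = 0.0113), and the interaction was 1.94 ± 0.40 (adjusted p = 0.019). For AT5G44260 and AT2G17880 the interactions were 1.58 ± 0.30 (adjusted p = 0.0106) and 1.58 ± 0.31 (adjusted p = 0.0131), and for AT2G39400 1.53 ± 0.34 (adjusted p = 0.0415). Each of these 5 calls was lost without Ler −Glc replicate 2, Ler +Glc replicate 1, gin2 −Glc replicate 2, gin2 −Glc replicate 3 or gin2 +Glc replicate 3, and some without other libraries. The count of positive calls was 1 without any 1 of the 5 libraries just named and 14 without Ler −Glc replicate 3, as it was without both Ler libraries numbered 3. Over all genes it was 13 to 21, 195 and 245 in these cases, against 41 with every library.

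**Figure D5:**
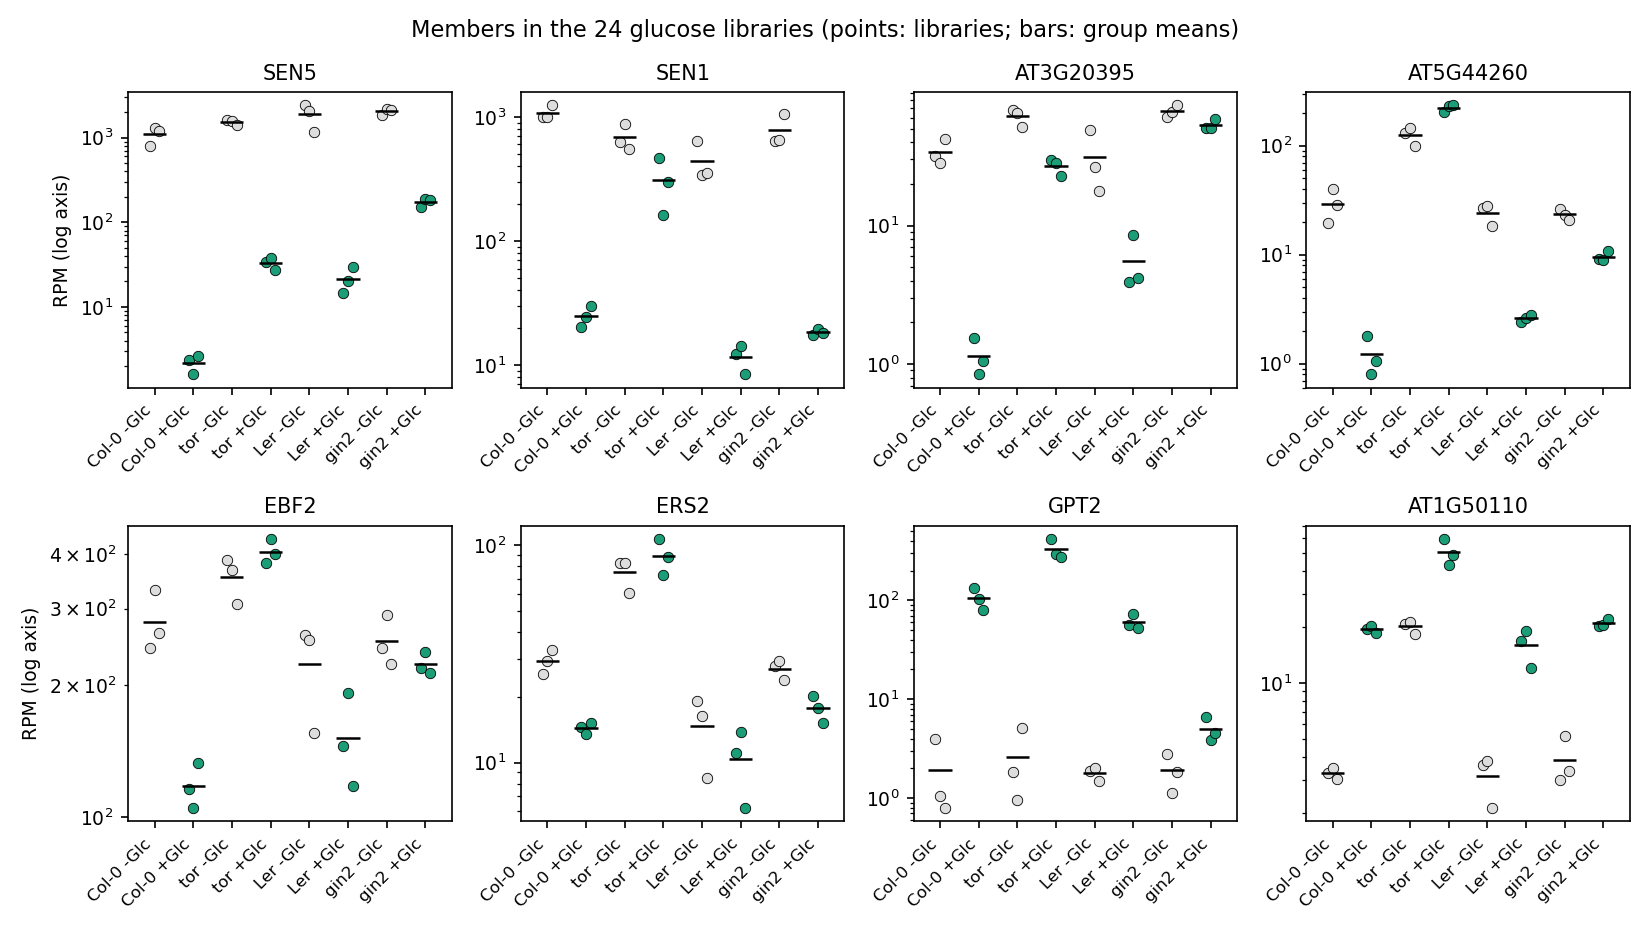
RPM of 8 members (y axes, log scale) in the 24 glucose libraries; points are libraries, bars group means, grey without and green with glucose. SEN5 and SEN1 are lower with glucose in every genotype, EBF2 and ERS2 are lower in Col-0 but not in tor, and GPT2 is higher with glucose in every genotype, least in gin2.

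Across the 4 genotypes, 26 of 136 members (19.1%) fell in every one and 9 (6.62%) rose in every one, against 5.44% and 8.57% of the 17113 genes tested in all. The panel plot of RPM in the glucose libraries shows examples of both. Falls in every genotype included SEN5, SEN1, AT1G19530, AT2G15960, UMAMIT33, OXS3, AT2G17880, AT2G39400, UPB1, ANAC055, ANAC059 and AT5G19890. Rises in every genotype were those of GPT2, AT1G50110, AT4G35160, ACO1, AT4G27900, AT3G26960, AT5G02760, AT5G50335 and CYP78A7. Of the rises, that of CYP78A7 in Ler was lost with edgeR (adjusted p = 0.0606), with DESeq2 (adjusted p = 0.066), in a fit to the Ler libraries alone (adjusted p = 0.129) and without Ler −Glc or +Glc replicate 1 or 2. Leaving out some library also ended the rises of ACO1 in tor and Ler, AT3G26960 and AT5G02760 in tor, and AT4G27900 in gin2. Of the ethylene perception and relay members none was in either group. The other members tested in all 4 were called in some genotypes or in none, which by itself is no tested difference between genotypes.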

How the data were processed

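The submitters' processing notes name TopHat and HTSeq as tools, per the labels; their versions, the genome build, the strandedness of counting and how multiply matching reads were handled are not given in the sources used here. Each of 36 libraries has 1 deposited column of RPM (reads of a gene per 1e+06 reads), a scaling done by the authors. In each column the values were whole multiples of the worth of 1 read (tolerance 0.02 reads, 100% of values used), and reads recovered in this way served only for edgeR and DESeq2. Of the members, 155 are listed in the first glucose experiment and 137 for both Ler and gin2; 12 are listed for gin2 only and, like all 1033 such genes, were not used there.

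A gene entered the test when 3 or more of the 12 libraries of its glucose experiment reached 1 RPM. The test was limma 3.58.1 (R 4.3.3, trend option) on log2(RPM + 1), without replicate block. Calls had a two-sided Benjamini-Hochberg adjusted p below 0.05 over all genes tested. Errors of log2 changes are standard errors and errors of RPM are SD over n = 3 libraries. The fit was tested on simulated data. The p-values measure the spread between libraries that the labels call biological replicates. Depth sets a floor of 3 reads, at most 0.462 RPM in any library, which covers counting error only.

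The members, the gene lists, the product-name classes and the naming rule were chosen with earlier results of these data known. The rule makes eligible the 12 members with the largest smaller ACC difference, members in 14 lists, the 6 largest called rises and falls per glucose comparison whose libraries did not overlap, the 4 largest called interactions in each direction, and the genes beside the threshold. Other genes named were chosen after their values were seen. All 161 codes matched RefSeq (TAIR10.1); 35 members overlap another annotated gene and 14 lie beside another member, where reads could be shared.

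Residuals of same-numbered libraries were correlated; no comparison had all 3 correlations above 0.1, so the numbers were not taken to pair libraries. The alternatives tried were fits restricted to the compared groups, median-of-ratios scaling, no filter, a pseudocount of 0.25 RPM, a 2-fold minimum, a replicate block, edgeR 4.0.16, DESeq2 1.42.0, other member rules and leaving out each library. Leaving out both Ler libraries numbered 3 and RPM recomputed over listed genes were added after seeing the data.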

Additional observations from a re-analysis of the deposited data

Results flagged for a closer look

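Several members stood out because the glucose effect itself differed between the mutant and its wild type, by limma's interaction test. Values are differences of log2 changes, mutant minus wild type.

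Between libraries labelled tor and Col-0, members of ethylene perception and relay were ERS2 (1.21), RTE1 (1.04), ERS1 (0.81), ETR2 (0.79), CTR1 (0.89), EBF2 (1.43). Other positive differences, a selection from the 54 called, included those of AT1G19530 (2.98), WRKY40 (1.22), AT2G15960 (2.31), AT2G39400 (1.86), AT2G39980 (2.00), SEN5 (2.92), AT3G20395 (2.85), ARGOS (1.17), UMAMIT33 (1.15), SEN1 (4.15), ANAC092 (NAC6) (1.58), AT5G44260 (4.59), ACO4 (0.86), ERF2 (1.16). Negative differences were those of AT1G50110 (−0.99), AT3G49960 (−1.92), AT4G35160 (−1.28), AT5G26220 (−1.02), AT5G46710 (−0.90). Of the values named here, those of ERS1, ACO4, AT3G49960 and AT5G26220 lost their calls in some settings.

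Between gin2 and Ler, they were GPT2 (−3.38), AT2G17880 (1.58), AT2G39400 (1.53), LBD41 (1.90), SEN5 (2.82), AT3G20395 (1.94), AT5G44260 (1.58). Only the values of SEN5 and GPT2 kept their calls in every setting run.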

How the results depend on the processing

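Of 157 called gene results that were refitted, 134 kept direction and call in every setting run, 23 lost the call when some library was left out, 6 of them also with another method or setting, and none of these reversed. The number of members was 151 to 173 with 1 library left out and 103, each of them among the 161, at a threshold of 1.0.

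Counts of members moved as follows. With a 2-fold minimum, 9 rose and 49 fell in Col-0 (11.1% and 5.82% of all genes), 6 and 20 in tor (2.3% and 3.51%), 9 and 37 in Ler (6.35% and 5.73%) and 10 and 30 in gin2 (7.59% and 3.91%), and the tor interaction was positive in 34 and negative in 3 (1.88% and 3.7%). With the threshold of 1.0, which leaves fewer members, 50 fell and 15 rose of 101 tested in Col-0. In tor 25 of 101 fell and 28 rose. Of 89 tested, 37 fell and 8 rose in Ler, and 30 fell and 15 rose in gin2. The calls are those of the main fit. There 20.6% of all genes fell and 35.7% rose in Col-0, and 14.8% and 19.9% in tor. The shares were 11.3% and 17.4% in Ler, and 8.73% and 18.7% in gin2. With RPM recomputed over listed genes, 24 rose in Ler, 36 in gin2 and 13 had a positive gin2 interaction. Over all 17352 genes these counts were 6109, 5520 and 229, against 3019, 3252 and 41 in the main fit. A fit to gin2 libraries alone gave 39 rises, against 6096 among all 17349 genes. The positive gin2 interactions numbered 13 with median-of-ratios scaling, 14 with edgeR, 17 with DESeq2 and 14 without both Ler libraries numbered 3. Over all genes they numbered 256, 296, 380 and 245, against 41 in the main fit. The cause of these moves was not tested.

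With 1 library left out, falls and rises were 61 to 71 and 22 to 28 in Col-0, 33 to 49 and 30 to 40 in tor, 42 to 62 and 11 to 24 in Ler, and 35 to 39 and 14 to 20 in gin2. The tor interaction was positive in 48 to 57 and negative in 3 to 10 members, the gin2 interaction positive in 1 to 14 and negative in 1. Over all genes, falls and rises were 3322 to 3925 and 5950 to 6699 in Col-0, and 2245 to 3630 and 2908 to 3907 in tor. They were 1444 to 3472 and 1988 to 4342 in Ler, and 1064 to 1221 and 2251 to 2693 in gin2. Positive and negative interactions were 770 to 1368 and 1309 to 3631 for tor, and 13 to 195 and 5 to 23 for gin2.

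With a replicate block, 69 members fell and 27 rose in Col-0, 41 and 38 in tor, 55 and 15 in Ler and 43 and 25 in gin2. The tor and gin2 interactions were positive in 53 and 8. Over all genes 3901 fell and 6791 rose in Col-0, 2766 and 3710 in tor, 2167 and 3280 in Ler and 1681 and 3509 in gin2. The interactions were positive in 1093 and 68 genes. The labels give same-numbered libraries only a shared number. Their residuals correlated most in the Ler pair numbered 3 (r = 0.637), and next in the Col-0 pair numbered 3 (r = 0.285).

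Low mock levels and the 5.64 M reads of the shallowest Ler or gin2 library limit the precision for the weakest members.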
